A study of Mus musculus with 6 samples.

Results

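Long intergenic noncoding RNAs (lincRNAs) expressed in fetal aortic smooth muscle were followed across 3 Jag1 genotypes. A member is a gene that the deposited table classes as lincRNA, that has a mean scaled value of 50 or more over the 6 libraries, that does not lie on chromosome X or Y and that is not Meg3, Rian or Mirg. This rule took 263 of the 37309 genes in the table, and 263 of the 1273 lincRNA rows. It leaves out 10 lincRNAs of that level on the sex chromosomes and the 3 named genes. Another 829 lincRNAs had a mean above 0 and under 50, and 168 were at 0 in all libraries. The members were thus chosen by their mean scaled value over all libraries, and their levels are given as a description.

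The RNA came from vascular smooth muscle cells of the mouse descending aorta at embryonic day 14.5, with 2 libraries per genotype. Jag1 encodes a membrane ligand of the Notch receptors. Wildtype libraries were JAG1 lox/lox Cre-, heterozygous libraries JAG1 lox/+ Cre+ and knockout libraries JAG1 lox/lox Cre+. All groups therefore carried a floxed allele, and the Cre groups differ from wildtype in Cre as well as in Jag1, while knockout and heterozygous libraries both carry Cre. The labels name the null as one of smooth muscle cells but not the promoter that drove Cre, and they do not say whether the libraries of a group came from separate embryos, so p-values measure only the spread between these libraries.

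Jag1 itself had scaled values of 1965 and 1885 in wildtype, 492 and 584 in heterozygous and 19.9 and 35.4 in knockout libraries. Depth ran from 17323962 to 28123670 reads in genes per library. The smooth muscle label was checked on its markers: Acta2, smooth muscle actin, lay between 79073 and 120179 in all 6 libraries, and 12 of 17 contractile genes fell in knockout. The Y-linked gene Ddx3y was at 973 to 1207 in the wildtype and heterozygous libraries and at 5.44 and 12.2 in the knockout libraries. Xist, which is made from the inactive X chromosome of female cells, was at 3329 to 4351 in the wildtype and heterozygous libraries and at 5622 and 5785 in the knockout libraries, so the former held both Xist and Y-linked transcripts. The sex makeup of the libraries and the knockout cannot be told apart. For 18 macrophage and leukocyte markers the summed value came to 34642 and 34891 in wildtype libraries, 72447 and 67229 in heterozygous libraries and 14523 and 13842 in knockout libraries, and all 18 passed as lower in knockout against wildtype. The knockout libraries were the least alike, with a chi-square per gene of 23.5 between them against 5.07 in wildtype and 3.75 in heterozygous, where counting error alone would give a value near 1. In bulk RNA, fewer cells of a type and less RNA per cell cannot be told apart.

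Long noncoding RNAs are transcribed, spliced and often polyadenylated like messenger RNAs but do not code for a conserved protein. Some act in the nucleus on chromatin or on the genes beside them, some are precursors whose introns or exons release small nucleolar RNAs (snoRNAs) or microRNAs, and for most no function is known. In smooth muscle the best known is the one that hosts miR-143 and miR-145, microRNAs known to promote the contractile state.

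The class lincRNA belongs to the old annotation behind the table, so it was set against a later one, GENCODE M21, and RefSeq on GRCm38.p6. Of the 263 members, 114 were found by Ensembl ID, 53 by symbol in RefSeq, 7 by an older symbol and 89 not at all. Of the 114 found by ID, 11 were still classed as lincRNA. The others were 44 processed transcripts, 41 antisense RNAs, 10 protein coding genes, 4 bidirectional promoter RNAs and 4 pseudogenes of 3 kinds. Most located members were not intergenic in that annotation: 123 of 174 overlapped a protein coding gene, 114 of them on the opposite strand, and the 51 that did not lay a median of 2669 bases from the nearest one. Of the 114 found by ID, 89 shared exon bases with a coding gene on the opposite strand, and in 16 these made up over 50% of the member's exon bases. The strand setting of the authors' counting is not given in the sources used here, so reads of such a pair cannot be told apart, and every value of an overlapping member below carries that limit.

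**Figure D1:**
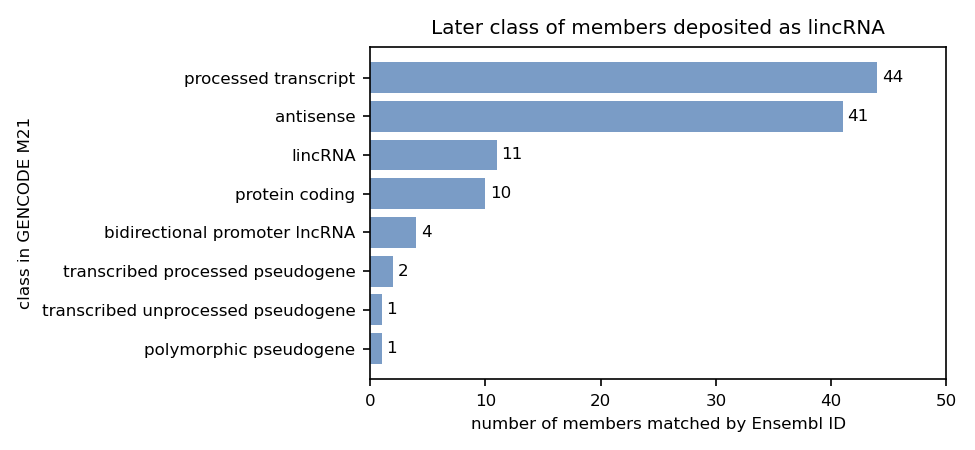
Number of members (x axis) in each GENCODE M21 class (y axis) among the 114 members found there by Ensembl ID. Processed transcripts (44) and antisense RNAs (41) far outnumber the 11 that were still lincRNA.

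Sequence is given for Gm2115 and for those members that passed below and whose window holds a motif described next. A window is the 250 bases before and 50 bases after a RefSeq start site. The windows of the other members that passed are not printed. The start sites of 114 members gave 135 such windows. Capitals mark a match to TGGGAA or its reverse complement TTCCCA, the core that RBPJ, the DNA-binding partner of Notch, recognises, or to CACGTG, an E box. The RBPJ core was in 21.5% of the member windows and in 25.6% of all windows of that length, and the E box in 6.67% and 7.15%. Of the members that passed in any comparison below, 13 had a window, with 15 windows in all, of which 3 held the RBPJ core and 1 the E box. Gm2115, on chr7:84528724-84529023 (+), is shown because it had the clearest rise in knockout, and its window holds neither motif. The RBPJ core was in the windows of Gm9917 on chr9:107566916-107567215 (-) and 8030451A03Rik on chr4:63984481-63984780 (+), which fell in knockout, and of A830082K12Rik on chr13:78197767-78198066 (+), which rose. 7530420F21Rik (RefSeq Ptgs2os) on chr1:150099825-150100124 (-) holds the E box.
Gm2115: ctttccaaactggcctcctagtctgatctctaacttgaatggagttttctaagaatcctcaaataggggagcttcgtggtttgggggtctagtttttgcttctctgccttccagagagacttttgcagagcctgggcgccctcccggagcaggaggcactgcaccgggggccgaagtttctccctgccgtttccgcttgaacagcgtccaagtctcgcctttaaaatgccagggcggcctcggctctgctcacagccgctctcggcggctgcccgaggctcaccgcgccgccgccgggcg
Gm9917: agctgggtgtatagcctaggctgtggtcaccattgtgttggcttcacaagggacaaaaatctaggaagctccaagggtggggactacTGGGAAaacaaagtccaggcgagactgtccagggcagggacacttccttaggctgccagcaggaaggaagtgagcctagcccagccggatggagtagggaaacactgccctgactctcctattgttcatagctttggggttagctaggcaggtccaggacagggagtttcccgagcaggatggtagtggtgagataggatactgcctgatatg
8030451A03Rik: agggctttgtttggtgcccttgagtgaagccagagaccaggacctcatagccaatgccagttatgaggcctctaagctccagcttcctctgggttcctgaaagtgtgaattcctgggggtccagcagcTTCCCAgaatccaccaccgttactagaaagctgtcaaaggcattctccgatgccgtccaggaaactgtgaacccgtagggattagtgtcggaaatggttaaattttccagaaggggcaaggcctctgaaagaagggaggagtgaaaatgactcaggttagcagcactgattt
A830082K12Rik: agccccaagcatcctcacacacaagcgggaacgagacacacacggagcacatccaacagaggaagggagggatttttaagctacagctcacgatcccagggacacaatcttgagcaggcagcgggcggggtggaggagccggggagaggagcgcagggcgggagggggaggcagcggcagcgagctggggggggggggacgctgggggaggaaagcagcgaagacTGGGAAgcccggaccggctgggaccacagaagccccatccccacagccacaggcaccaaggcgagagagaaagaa
7530420F21Rik: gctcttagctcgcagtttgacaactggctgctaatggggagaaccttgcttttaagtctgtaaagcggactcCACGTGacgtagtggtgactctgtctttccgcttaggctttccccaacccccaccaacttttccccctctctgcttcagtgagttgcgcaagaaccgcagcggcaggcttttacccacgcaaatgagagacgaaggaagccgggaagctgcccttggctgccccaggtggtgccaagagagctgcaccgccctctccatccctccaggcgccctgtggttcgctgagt

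A match is a string of letters, not a bound site. The snoRNA host genes form the other set for which the start matters, since in mammals many of them begin with a 5′ oligopyrimidine tract, a C followed by pyrimidines, that ties them to the translation machinery. For the 9 snoRNA host members with a window, the 20 bases before and 30 bases from each RefSeq start are printed, with the first 5 transcribed bases in capitals.
Gas5 chr1:161034581-161034630 (+): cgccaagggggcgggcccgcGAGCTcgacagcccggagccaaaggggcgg
Gas5 chr1:161035146-161035195 (+): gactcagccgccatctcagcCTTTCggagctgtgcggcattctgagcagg
9430008C03Rik (Snhg17) chr2:158361493-158361542 (-): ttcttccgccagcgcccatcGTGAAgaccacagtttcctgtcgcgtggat
9430008C03Rik (Snhg17) chr2:158361480-158361529 (-): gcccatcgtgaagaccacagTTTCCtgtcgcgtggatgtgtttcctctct
Snhg12 chr4:132308658-132308707 (+): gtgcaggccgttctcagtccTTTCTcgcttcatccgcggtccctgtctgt
2700038G22Rik chr5:23850577-23850626 (+): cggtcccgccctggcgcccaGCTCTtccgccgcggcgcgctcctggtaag
Snhg5 chr9:88522868-88522917 (-): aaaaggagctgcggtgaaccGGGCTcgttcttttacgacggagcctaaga
9430037G07Rik chr9:88599214-88599263 (-): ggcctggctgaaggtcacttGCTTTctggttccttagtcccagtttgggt
Gm11974 (Snhg15) chr11:6528731-6528780 (-): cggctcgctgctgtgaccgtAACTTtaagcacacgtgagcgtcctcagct
2410006H16Rik chr11:62602857-62602906 (+): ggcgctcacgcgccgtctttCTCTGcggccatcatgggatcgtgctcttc
Snhg1 chr19:8723467-8723516 (+): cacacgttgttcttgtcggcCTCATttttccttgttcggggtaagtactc

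Of these 11 starts, 1 is a C followed by 4 pyrimidines, the downstream start of Gas5, against 3.7% of all member windows and 2.51% of all windows. The last pair shown are the mature microRNAs whose hairpins lie within the member 1700016P03Rik on chromosome 11, with the seed, bases 2 to 8, in capitals. They share that seed and match at 17 of 22 positions.
mmu-miR-132-3p chr11:75173723-75173744 (+): uAACAGUCuacagccauggucg
mmu-miR-212-3p chr11:75173443-75173464 (+): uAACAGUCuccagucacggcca

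As a class the members were low. The mean scaled value ran from 50.2 to 34524 with a median of 146, and 106 members lay between 50 and 100 while 28 exceeded 1000. Per length, their median RPKM (scaled reads per kilobase of gene length against 1 common total, as deposited) was 2.48, against 4.69 for the 11643 protein coding genes with a mean of 50 or more. The members were also shorter, with a median length of 2600 bases against 4909. Together they held 0.743% to 0.798% of the scaled values of a library, and the 3 highest members held 38.5% to 43.5% of that.

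The 3 highest were Gm16854 with a mean RPKM of 416, Gm17431 with 352 and Gm15270 with 132, followed by 1810014B01Rik with 109 and Gm17605 with 60.1. The scaled value of Gm16854, on chromosome 6, was 30291 and 29714 in wildtype, 36206 and 34571 in heterozygous and 34061 and 42303 in knockout libraries. Every library with Cre lay above both wildtype libraries, but the log2 change in knockout of 0.34 ± 0.11 (SE) did not pass (adjusted p = 0.0818, limma). Gm15270 overlaps Ccn2 (Ctgf), a matrix protein gene of smooth muscle, on the opposite strand and shares 32.4% of its exon bases with it. Its knockout libraries differed from each other most among these, at 18779 and 9735. With limma, none of the 10 members with the highest RPKM passed in knockout against wildtype, beside 12.5% of all genes tested. There 5 had an unadjusted p under 0.05, beside 3930 of 15781 genes tested. Of the 10, edgeR called none and DESeq2 called 2. The shares of all genes that these 2 tools called are not given here. None passed in heterozygous against wildtype with any of the 3 tools, beside 8.07% of all genes tested with limma. None had an unadjusted p under 0.05 there, beside 2918 of 15781 genes tested. Gm17419, the 7th of them by RPKM, was the 1 that passed in knockout against heterozygous, beside 12.5% of all genes tested.

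**Figure D2:**
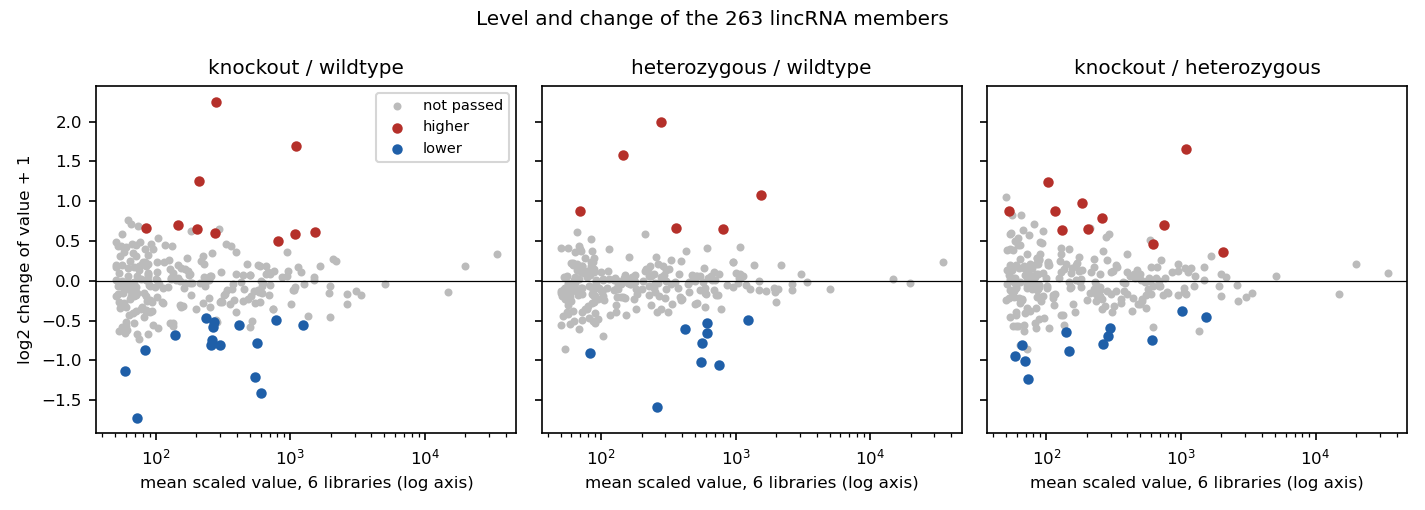
Log2 change of value + 1 (y axis) against mean scaled value over 6 libraries (x axis, log scale) for 263 members, 1 panel per comparison. Red points passed as higher, blue as lower and grey did not pass, and the 4 members with the highest means are grey in all panels.

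In knockout against wildtype, 10 members rose, 16 fell and 237 did not pass. A gene passed at a Benjamini-Hochberg adjusted p under 0.05 in limma, on log2(value + 1), fitted to the 15781 genes with a value of 10 or more in at least 2 libraries, and all 263 members met that filter. The 9.89% of members that passed stand beside 12.5% of all genes tested and 14.2% of protein coding genes with a mean of 50 or more. By direction, 5.42% of all genes tested rose and 7.1% fell. The members' median log2 change was -0.05 and that of all genes tested was 0.00. The groups did not overlap for 44.5% of members and 50.1% of all genes tested, and did not overlap for any of the 26 members that passed. Of the 26, 7 passed under all 14 alternative settings, and the 19 others lost the call without at least 1 wildtype library: 17 without wildtype replicate 1 and 18 without replicate 2. Without 1 heterozygous library 13 calls ended, and without knockout replicate 1, 2 did. Without knockout replicate 2, the counts were 44 higher and 57 lower, and without replicate 1, 15 and 31.

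The largest rise was that of Gm16548, on chromosome 1. Its scaled values were 76.6 and 95.1 in wildtype, 364 and 323 in heterozygous and 374 and 448 in knockout libraries. Every library with Cre lay more than 3-fold above the wildtype libraries. The log2 change was 2.25 ± 0.16 in knockout and 1.99 ± 0.16 in heterozygous against wildtype (limma adjusted p = 3.95e-05 and 0.000183). Gm16548 lies antisense to Selp, which encodes P-selectin, and shares 35.7% of its exon bases with it. Selp had 987 and 940 in wildtype, 3373 and 3483 in heterozygous and 5742 and 4775 in knockout libraries, a log2 change of 2.44 in knockout (adjusted p = 2.71e-06). The antisense model thus moved with the coding gene in both Cre groups.

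Gm2115, on chromosome 7, whose promoter is printed above, rose in knockout. Its values were 634 and 613 in wildtype, 613 and 672 in heterozygous and 2102 and 1937 in knockout libraries. Wildtype and heterozygous libraries overlapped and both knockout libraries lay far above them. The log2 change was 1.69 ± 0.10 against wildtype (adjusted p = 1.65e-05) and 1.65 ± 0.10 against heterozygous (adjusted p = 7.93e-06), and 0.04 ± 0.10 in heterozygous against wildtype (adjusted p = 0.917). RefSeq lists Gm2115 as protein coding. Its nearest coding gene, Fah, the last enzyme of tyrosine breakdown, lies 3921 bases away and did not pass (log2 change 0.30, adjusted p = 0.371). As for every value set on the knockout libraries, the sex makeup and the knockout cannot be told apart here.

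Gm17446, on chromosome 14, was higher with Cre but highest in heterozygous libraries, with values of 999 and 977 in wildtype, 2038 and 2131 in heterozygous and 1592 and 1447 in knockout libraries. It rose by a log2 change of 0.62 ± 0.09 in knockout and 1.08 ± 0.09 in heterozygous (adjusted p = 0.00217 and 0.000253). C230034O21Rik, antisense to the giant cadherin gene Fat4, rose by 1.26 ± 0.25 (adjusted p = 0.00922, and 0.106 without wildtype replicate 2). Its values were 151 and 106, 188 and 192, and 393 and 233 in wildtype, heterozygous and knockout libraries. Fat4 rose too, by 1.00. B230206H07Rik, which overlaps the actin regulator gene Eps8l2, rose by 0.65 ± 0.16 beside a rise of 0.70 in Eps8l2, with an adjusted p of 0.029 that became 0.0706 to 0.253 without a wildtype or heterozygous library. A830082K12Rik overlaps Nr2f1, a nuclear receptor gene, and rose by 0.66 ± 0.18 (adjusted p = 0.0424), which ended without any of 5 libraries, with adjusted p of 0.0832 to 0.259. Nr2f1 did not pass (0.19, adjusted p = 0.304).

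The other members that rose were 3 predicted models with no located neighbour, and the row with the symbol Mir1900. Gm17588 on chromosome 14 changed by 0.58, Gm17429 on chromosome 6 by 0.60 and Gm16898 on chromosome 2 by 0.50. The calls of all 3 ended without either wildtype or either heterozygous library, with adjusted p of 0.0718 to 0.234, 0.0931 to 0.252 and 0.119 to 0.337, and that of Gm17429 also without knockout replicate 1, at 0.0511. The row named Mir1900 is a model of 3485 bases on chromosome 9, so its value is that of the long transcript model and not of the microRNA. It is described with the heterozygous comparison.

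The largest fall was that of Gm16908, which RefSeq names Carmn, the smooth muscle noncoding RNA that holds the hairpins of miR-143 and miR-145. Its values were 97.5 and 120 in wildtype, 76.6 and 77.0 in heterozygous and 32.6 and 31.8 in knockout libraries. The knockout values lay under the level of 50 that the rule set for the mean. They rest on few reads, since 1 read was 0.906 and 1.22 scaled units in knockout replicates 1 and 2. The groups were fully separate and in the order of Jag1 dose. The log2 change in knockout was -1.72 ± 0.20 against wildtype (adjusted p = 0.000489) and -1.23 ± 0.20 against heterozygous (adjusted p = 0.00304), and -0.49 ± 0.20 in heterozygous against wildtype, which did not pass (adjusted p = 0.216). Both calls held under all 14 alternatives. Of the 17 contractile genes none rose in any comparison, and 12 fell in knockout against wildtype, 5 in heterozygous against wildtype and 4 in knockout against heterozygous. Myh11, smooth muscle myosin heavy chain, had 3851 and 3512 in wildtype, 2193 and 2222 in heterozygous and 1757 and 1653 in knockout libraries, and passed in all 3. Mylk, the kinase that activates smooth muscle myosin, had 5136 and 4974, 4845 and 4927, and 2125 and 1811, so only the knockout libraries stood far below the wildtype.

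Gm17639, on chromosome 12, had 892 and 919 in wildtype, 665 and 495 in heterozygous and 324 and 359 in knockout libraries. It fell by 1.40 on the log2 scale with an SE of 0.15 (adjusted p = 0.000268), and the groups again stood apart in the order of dose. 9930014A18Rik, on chromosome 15, overlaps Fam84b and had 868 and 838, 435 and 406, and 367 and 373 in the 3 groups. Most of its fall was already present with 1 floxed allele and Cre, since the log2 change was -1.20 ± 0.11 in knockout and -1.02 ± 0.11 in heterozygous (adjusted p = 0.00012 and 0.000515). Fam84b fell by 1.10 on the log2 scale in knockout. Gm16933, antisense to Plekha2, a phosphoinositide-binding protein gene, had 368 and 370, 312 and 322, and 191 and 230. It changed by -0.81 ± 0.13 (adjusted p = 0.00318), beside -0.73 in Plekha2. These 3 and Gm16908 were the falls that passed under all 14 alternatives.

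9130206I24Rik, now Foxd2os, starts 384 bases from the forkhead gene Foxd2 and had 126 and 112, 56.6 and 69.7, and 71.6 and 58.7 in wildtype, heterozygous and knockout libraries. Its log2 change of -0.86 ± 0.20 (adjusted p = 0.021, but 0.197 and 0.108 without wildtype replicate 1 or 2) stands beside -0.84 in Foxd2. D430036J16Rik, which overlaps the serotonin receptor gene Htr1b, changed by -0.78 ± 0.12 (adjusted p = 0.00244, and 0.0528 without wildtype replicate 1) beside -0.80 in Htr1b. 8030451A03Rik is antisense to Tnc, which encodes the matrix protein tenascin C, and changed by -0.50 ± 0.11 beside -0.41 in Tnc. Its call ended without any wildtype or heterozygous library (adjusted p = 0.0171 became 0.0576 to 0.185).

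Gm9917, across from the tumour suppressor gene Rassf1, had 1580 and 1538, 1152 and 1074, and 1004 and 1116, and changed by -0.56 ± 0.10 (adjusted p = 0.00508, and 0.0799 and 0.0621 without wildtype replicate 1 or 2), beside -0.41 in Rassf1. 2700086A05Rik, now Hoxaas3, overlaps 6 coding genes, with the longest overlap with Hoxa3 on the opposite strand, and shares 20.3% of its exon bases with Hoxa7. It changed by -0.51 ± 0.12 (adjusted p = 0.0216, and 0.0618 to 0.194 without a wildtype or heterozygous library), while neither Hoxa3 (0.13, adjusted p = 0.716) nor Hoxa7 (-0.01, adjusted p = 0.986) passed. Gm14005 on chromosome 2, whose nearest coding gene is the cell death gene Bcl2l11, 15772 bases away, changed by -0.55 ± 0.14 (adjusted p = 0.0326, and 0.0885 to 0.207 without a wildtype or heterozygous library). The 5 other falls without a named role, Gm16625, Gm17311, Gm17453, Gm16704 and Gm17300, ranged from -1.14 to -0.47, and each call ended without either wildtype library, with adjusted p up to 0.354. Snhg17 is described with the snoRNA hosts.

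**Figure D3:**
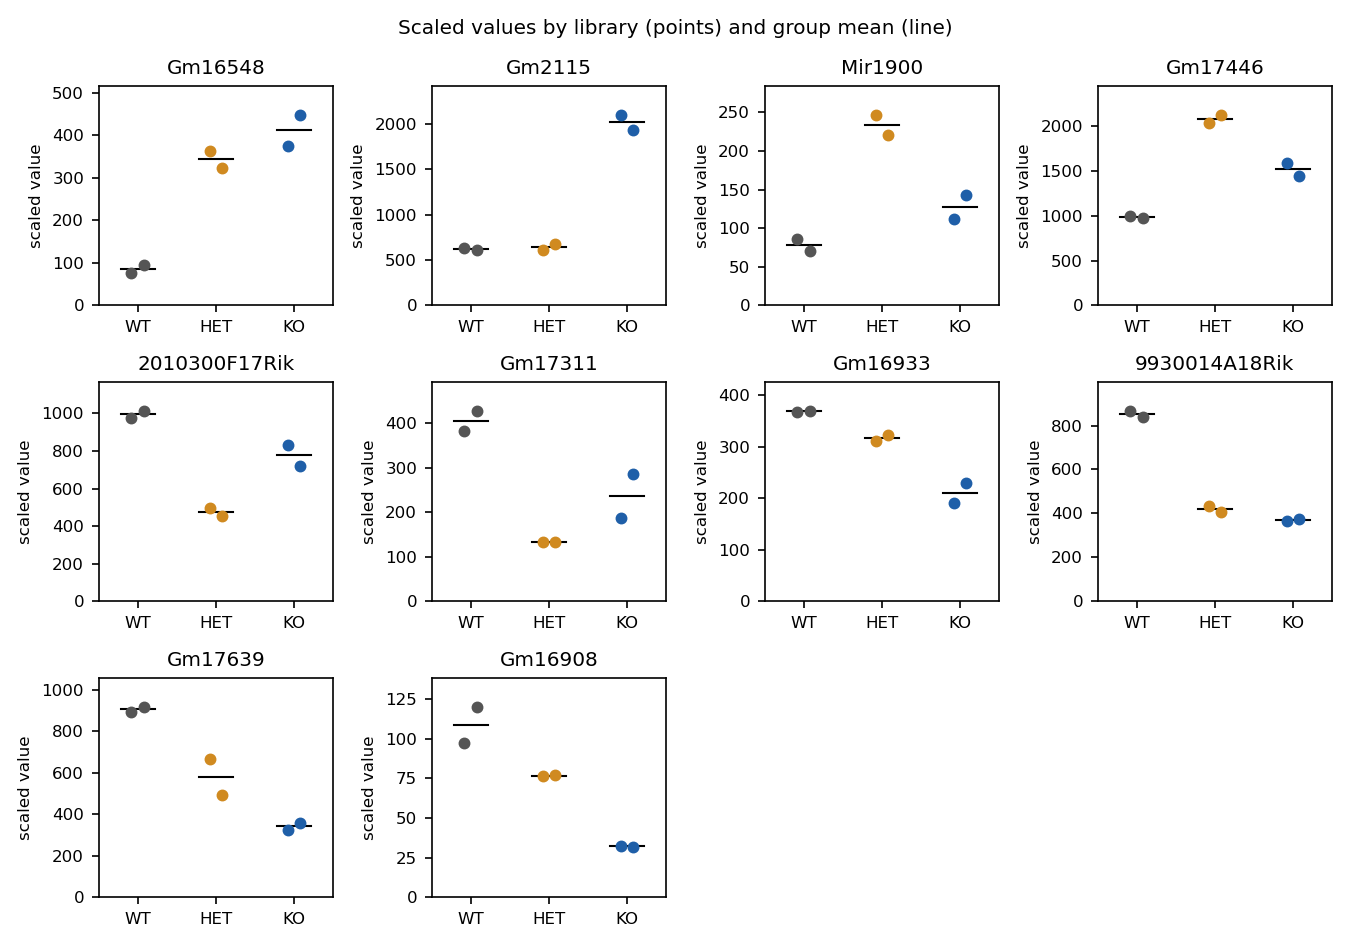
Scaled values (y axis, from 0) of each library (points) and the mean of each group (lines) for the 10 members with a call that passed under all 14 alternatives, by genotype (x axis; WT wildtype, HET heterozygous, KO knockout). Gm2115 is high in knockout alone, Gm16908 and Gm17639 step down from WT to KO, and Mir1900, Gm17446, Gm17311 and 2010300F17Rik have their extreme in HET.

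In heterozygous against wildtype, 6 members rose, 9 fell and 248 did not pass. The 5.7% that passed stand beside 8.07% of all genes tested, of which 5.33% rose and 2.74% fell. The median log2 change was -0.05 for members and 0.00 for all genes tested, and groups did not overlap for 49.8% of members and 54.8% of all genes tested. Of the 15 calls, 6 passed under all 14 alternatives, and each of the 9 others ended without at least 1 wildtype library: 9 without replicate 1 and 8 without replicate 2. Without heterozygous replicate 1 or 2, 8 and 9 ended. Without knockout replicate 1 or 2, the counts grew to 16 higher and 24 or 23 lower.

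The row named Mir1900 had 85.9 and 70.0 in wildtype, 247 and 221 in heterozygous and 111 and 143 in knockout libraries, so that the 3 groups stood apart with heterozygous on top. Its log2 change was 1.58 ± 0.18 (adjusted p = 0.00098) in heterozygous and 0.70 ± 0.18 (adjusted p = 0.0371) in knockout against wildtype. The knockout call ended without either wildtype or either heterozygous library, with adjusted p of 0.0917 to 0.292. Gm17311, on chromosome 1, was the reverse, with 381 and 428 in wildtype, 134 and 133 in heterozygous and 188 and 285 in knockout libraries, a log2 change of -1.59 ± 0.19 (adjusted p = 0.0011). 2010300F17Rik, on chromosome 11, had 975 and 1014, 495 and 456, and 831 and 721. It changed by -1.06 ± 0.11 in heterozygous (adjusted p = 0.000555) and by -0.36 ± 0.11 in knockout against wildtype, which did not pass (adjusted p = 0.0691). For these members the heterozygous libraries were the extreme, and no function is known to give as background.

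Foxd2os (9130206I24Rik) and D430036J16Rik were low in heterozygous as well as knockout libraries, with heterozygous log2 changes of -0.91 ± 0.20 and -0.78 ± 0.12 against wildtype (adjusted p = 0.0238 and 0.00408). Foxd2 changed by -1.03 and Htr1b by -0.83. The Foxd2os call ended without any wildtype or heterozygous library, at 0.097 to 0.242, and that of D430036J16Rik without wildtype replicate 1 or either heterozygous library, at 0.0693 to 0.082. 1700006J14Rik, antisense to Hmga2, which encodes a chromatin protein of growing mesenchyme, had 718 and 675, 490 and 477, and 606 and 737. It changed by -0.53 ± 0.12 in heterozygous (adjusted p = 0.0275, and 0.164 to 0.262 without a wildtype or heterozygous library) beside -0.45 in Hmga2. Gm11131, across from the class I histocompatibility gene H2-Q4, had 59.6 and 51.2, 104 and 99.8, and 58.9 and 42.8. It rose by 0.87 ± 0.22 in heterozygous (adjusted p = 0.0412, and 0.166 to 0.323 without a wildtype or heterozygous library) beside 1.25 in H2-Q4. The leukocyte markers were also highest in the heterozygous libraries, 17 of 18 passing as higher than wildtype, and their part in these results was not tested.

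The 5 other calls belong to members met above or to models without a located role. Gm16898 rose by 0.65, Gm17243 by 0.67, Gm9917 changed by -0.49, Gm14005 by -0.61 and Gm17639 by -0.66. Without a library of either group their adjusted p reached 0.22, 0.41, 0.205, 0.229 and 0.243.

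Knockout against heterozygous holds Cre constant and compares 2 floxed alleles with 1. Here 11 members rose, 12 fell and 240 did not pass. The 8.75% that passed stand beside 12.5% of all genes tested, of which 4.39% rose and 8.09% fell. The median log2 change was -0.01 for members and 0.00 for all genes tested, and groups did not overlap for 42.6% of members and 50.4% of all genes tested. Under quantile normalization the split was 17 higher and 8 lower. Only Gm2115 and Gm16908 passed under all 14 alternatives. The 21 others lost the call without at least 1 heterozygous library, 19 of them without replicate 1 and 18 without replicate 2, and 12 did without either wildtype library. Without knockout replicate 1, 2 calls ended and the counts were 17 higher and 29 lower, and without knockout replicate 2 they were 45 and 49.

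Among members that rose, 9230114K14Rik, 167 bases from the RNA helicase gene Dhx15, had 152 and 175 in wildtype, 123 and 131 in heterozygous and 305 and 208 in knockout libraries. It changed by 0.98 ± 0.19 (adjusted p = 0.00877, and 0.107 and 0.0752 without heterozygous replicate 1 or 2), and Dhx15 did not pass (0.13, adjusted p = 0.391). Ptgs2os (7530420F21Rik) had 115 and 109, 74.8 and 92.6, and 161 and 147, a change of 0.88 ± 0.17 (adjusted p = 0.00885, and 0.118 without heterozygous replicate 1). Ptgs2, the inducible cyclooxygenase gene 157 bases away, had 38884 and 39079 in wildtype, 17017 and 18484 in heterozygous and 19986 and 22486 in knockout libraries. Ptgs2 was thus lower with Cre in every library, whereas Ptgs2os was lowest in heterozygous and highest in knockout libraries.

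Gm10561, across from Rftn2, changed by 0.64 ± 0.15 beside 0.65 in Rftn2, a membrane raft protein gene. 1700006J14Rik changed by 0.47 ± 0.12 beside 0.71 in Hmga2, and B230206H07Rik by 0.65 ± 0.16 beside 0.77 in Eps8l2. The adjusted p were 0.0259, 0.034 and 0.0301, and became 0.0589 to 0.19, 0.086 to 0.234 and 0.0635 to 0.239 without a wildtype or heterozygous library. Gm17414 had 101 and 98.3, 45.6 and 81.8, and 161 and 132, the widest gap of any member between the heterozygous libraries, and its call of 1.24 ± 0.26 (adjusted p = 0.0126) ended without heterozygous replicate 1 at 0.103. 2010300F17Rik and Gm17311 rose by 0.70 and 0.78 from their low heterozygous levels, and 4921504A21Rik rose by 0.88 and Gm17419 by 0.37. Without a heterozygous library these 4 reached adjusted p of 0.0567, 0.175, 0.249 and 0.215.

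Among members that fell, Gm11131 changed by -1.01 ± 0.22 (adjusted p = 0.0153, and 0.145 and 0.114 without heterozygous replicate 1 or 2) beside -2.08 in H2-Q4. H2-Q4 had 121 and 120, 301 and 279, and 87.0 and 52.5, the same order as the leukocyte markers, all 18 of which fell here. Gm16704 on chromosome 19 had 297 and 263, 313 and 338, and 196 and 180, and changed by -0.79 ± 0.13 (adjusted p = 0.00366, and 0.0682 without heterozygous replicate 2). F730043M19Rik, a bidirectional promoter RNA 96 bases from Atxn7l1, changed by -0.80 ± 0.19, and Gm15283, antisense to the hypoxia factor gene Hif1a, by -0.70 ± 0.19 beside -0.49 in Hif1a. Their adjusted p of 0.0258 and 0.0423 became 0.0645 to 0.215 and 0.0912 to 0.343 without a wildtype or heterozygous library. The part of leukocyte content in these 4 was not tested. The remaining falls were Gm16625 (-0.94), Mir1900 (-0.88), Gm17639 (-0.75), Gm17453 (-0.64), Gm16933 (-0.59), Gm17446 (-0.46) and 4731419I09Rik (-0.38), which reached adjusted p of 0.334, 0.153, 0.112, 0.287, 0.155, 0.148 and 0.259 without a heterozygous library.

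Across the 3 comparisons 39 different members passed at least once, and 224 passed in none. Ordered by group without overlap, 13 of all 263 members stepped down from wildtype through heterozygous to knockout and 7 stepped up. Of these, 8 and 3 were among the 39, the falls being Gm16908, Gm17639, 9930014A18Rik, Gm16933, 8030451A03Rik, Hoxaas3, Snhg17 and Gm17300, and the rises Gm16548, C230034O21Rik and A830082K12Rik. In 4 members knockout was lowest and heterozygous highest with no overlap, as for the leukocyte markers, and 3 of them passed in some comparison: Gm16704, F730043M19Rik and 4731419I09Rik. These orders were not counted over all genes tested, so the counts describe the members without a background. In single comparisons, groups did not overlap for 50.1% (knockout against wildtype), 54.8% (heterozygous against wildtype) and 50.4% (knockout against heterozygous) of all genes tested.

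The snoRNA hosts were the best defined functional group, with 11 members that hold an annotated snoRNA. Their spliced transcripts are mostly short lived, while the introns carry the snoRNAs that guide ribosomal RNA modification. In knockout against wildtype 1 fell, none rose and 10 did not pass, beside 12.5% of all genes tested that passed. Of the 11 log2 changes, 10 were below 0 with a median of -0.28, beside 149 of 263 for all members and 7962 of 15781 for all genes tested. DESeq2 called 2 of the 11 and edgeR 1. An unadjusted p under 0.05 was found for 5 of the 11, beside 3930 of 15781 genes tested. In heterozygous against wildtype none passed with limma, edgeR or DESeq2, beside 8.07% of all genes tested with limma. There 3 had an unadjusted p under 0.05, beside 2918 of 15781 genes tested. Of the 11 log2 changes, 10 were below 0 and the median was -0.26. Those below 0 numbered 158 of 263 for all members and 7730 of 15781 for all genes tested. The wildtype libraries are shared by both comparisons. In knockout against heterozygous 7 of 11 were below 0 with a median of -0.09. Those below 0 numbered 135 of 263 for all members and 7814 of 15781 for all genes tested. An unadjusted p under 0.05 was found there for 2 of the 11, beside 4006 of 15781 genes tested. None passed there with any of the 3 tools, beside 12.5% of all genes tested with limma. Snhg17 (9430008C03Rik), the 1 that passed, had 298 and 364, 256 and 246, and 211 and 182, a log2 change of -0.74 ± 0.15 (adjusted p = 0.00899). Without wildtype replicate 2 it did not pass (adjusted p = 0.133).

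Gas5, a host of many snoRNAs that is known to accumulate when growth stops, had 2114 and 2519, 2025 and 1822, and 1414 and 2018. Its knockout replicate 2 lay among the heterozygous values, and the change of -0.45 ± 0.16 did not pass (adjusted p = 0.113). Snhg1 had 544 and 673, 518 and 481, and 350 and 522, a change of -0.50 ± 0.18 (adjusted p = 0.124). Snhg4 on chromosome 18 had the lowest adjusted p of the 10 that did not pass, at -0.63 ± 0.20 (adjusted p = 0.0779), and Snhg15 (Gm11974), Snhg12 and Snhg5 gave -0.38, -0.28 and -0.21. The exception in sign was 2410006H16Rik, host of Snord49a, Snord49b and Snord65, at 251 and 224, 270 and 228, and 508 and 273, where knockout replicate 1 stood alone (0.65 ± 0.25, adjusted p = 0.137). The 17 genes listed for snoRNP proteins and their assembly, such as Npm1 and Nolc1, gave no call in either comparison against wildtype with limma, edgeR or DESeq2. With limma, 12.5% of all genes tested passed in knockout and 8.07% in heterozygous against wildtype. Of the 17, 1 had an unadjusted p under 0.05 in each, beside 3930 and 2918 of 15781 genes tested. In knockout against heterozygous Npm1 alone passed and rose (0.35 ± 0.09, limma adjusted p = 0.0365), beside 12.5% of all genes tested that passed. There 7 of the 17 had an unadjusted p under 0.05, beside 4006 of 15781 genes tested. The list's median was 0.23 in that comparison, beside 0.00 for all genes tested. Of 15 proliferation genes, 6 rose in knockout against wildtype, among them the ribonucleotide reductase gene Rrm2 by 0.68 and the replication helicase gene Mcm4 by 0.60. Their part in the snoRNA host values was not tested.

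**Figure D4:**
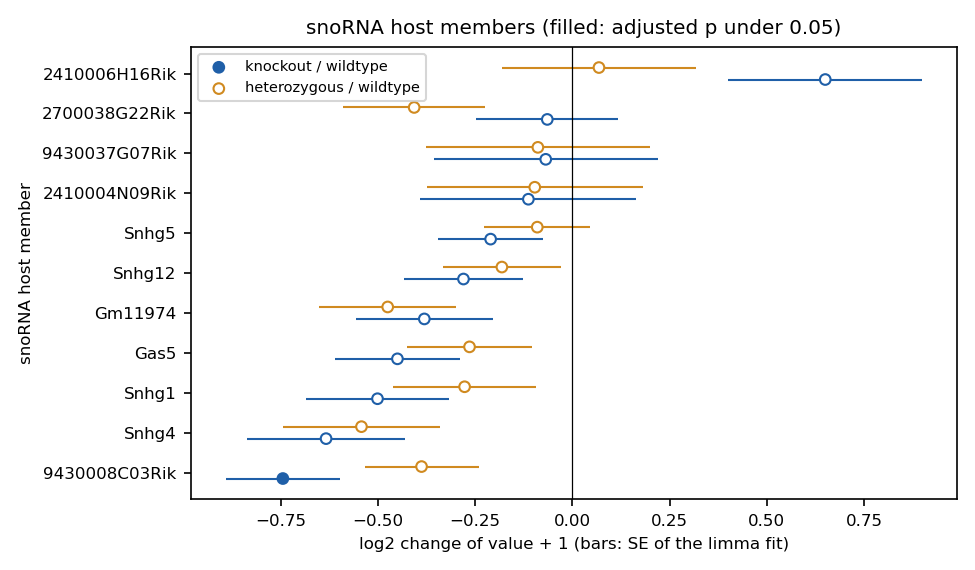
Log2 change of value + 1 (x axis, bars are the SE of the limma fit) of the 11 snoRNA host members (y axis) in knockout (blue) and heterozygous (orange) against wildtype, with filled points for an adjusted p under 0.05. Only 9430008C03Rik (Snhg17) in knockout is filled, and 2410006H16Rik is the 1 member above 0 in both.

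MicroRNA hairpins lie in 7 members, of which Snhg4 is also among the snoRNA hosts. In knockout against wildtype Gm16908 (Carmn) was the 1 that passed, beside 12.5% of all genes tested. All 7 log2 changes there were below 0, with a median of -0.12, beside 149 of 263 for all members. Among them were -0.01 ± 0.20 in 1700016P03Rik and -0.06 ± 0.25 in Gm11613. In heterozygous against wildtype 4 of 7 were below 0, beside 158 of 263 for all members. None of the 7 passed there, beside 8.07% of all genes tested. In knockout against heterozygous 6 of 7 were below 0, beside 135 of 263 for all members. Gm16908 was the 1 that passed there, beside 12.5% of all genes tested. 1700016P03Rik, which carries miR-132 and miR-212 with the shared seed printed above, had 66.6 and 58.5, 74.8 and 91.4, and 61.6 and 62.3. Its change in knockout was -0.01 ± 0.20 (adjusted p = 0.985), and 74.3% of its exon bases lie across from Ovca2. Gm17494 (Mir760), 4930470G03Rik (Mir1896) and Ttc28 (Mir701) did not pass in any comparison. These values are of long host RNAs and say nothing of the mature microRNAs. The 13 tested genes for microRNA processing gave no call against wildtype in either group with limma, edgeR or DESeq2. With limma, 12.5% of all genes tested passed in knockout and 8.07% in heterozygous against wildtype. Of the 13, 1 in knockout and 2 in heterozygous had an unadjusted p under 0.05, beside 3930 and 2918 of 15781 genes tested. In knockout against heterozygous 6 of the 13 had one, beside 4006 of 15781 genes tested. Eif2c2, which encodes the Argonaute protein that cleaves targets, passed there with all 3 tools and rose by 0.44 ± 0.11 (limma adjusted p = 0.0261).

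Other members are known from studies of growth and stress. Tug1, which binds chromatin regulators and is needed for male fertility in mice, had 3317 and 3711, 3304 and 3620, and 2941 and 3296, a knockout change of -0.17 ± 0.10 (adjusted p = 0.342). 1700020I14Rik, known as Cyrano, which drives the decay of miR-7, had 2621 and 3061, 2637 and 2878, and 2109 and 2542 (-0.29 ± 0.12, adjusted p = 0.164). Pvt1, the neighbour of Myc, had 157 and 181, 141 and 150, and 127 and 145 (-0.31 ± 0.16, adjusted p = 0.261). In all 3 the lowest library was knockout replicate 1. None of the 3 passed in any comparison with limma, edgeR or DESeq2. With limma, 12.5% of all genes tested passed in knockout and 8.07% in heterozygous against wildtype, and 12.5% in knockout against heterozygous. In knockout against wildtype 1 of the 3 had an unadjusted p under 0.05, beside 3930 of 15781 genes tested. Emx2os, beside the homeobox gene Emx2, lay at 46.9 to 61.6 in all libraries and did not pass. 0610009E02Rik, chosen after its values were seen, is antisense to Notch1, the receptor for which Jag1 is a ligand, and shares 59.2% of its exon bases with it. It had 55.7 and 71.1, 52.0 and 60.1, and 31.7 and 51.3, a knockout change of -0.63 ± 0.27 (adjusted p = 0.19).

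Members and the coding gene they overlap, or the nearest one, often changed with the same sign. In knockout against wildtype, 79 of 120 overlapping pairs with both genes tested changed with the same sign, against 30 of 45 pairs that do not overlap. In heterozygous against wildtype the counts were 87 of 120 and 26 of 45, and in knockout against heterozygous 80 of 120 and 30 of 45. Across pairs, which share libraries and possibly reads, Spearman's rho of the 2 log2 changes was 0.48, 0.61 and 0.48 for overlapping pairs and 0.26, 0.29 and 0.42 for the others. For members that passed and had a tested neighbour, the neighbour passed in the same direction in 10 of 15, 7 of 8 and 6 of 11 cases and in the other direction in none. Of all genes tested, 12.5%, 8.07% and 12.5% passed in these comparisons in either direction. The share among neighbours of members that did not pass was not counted. Selp with Gm16548, Fat4 with C230034O21Rik, Plekha2 with Gm16933 and H2-Q4 with Gm11131 are such pairs, and exon bases are shared in each. Ptgs2 with Ptgs2os, which passed only in knockout against heterozygous, is counted among those whose neighbour did not pass there.

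**Figure D5:**
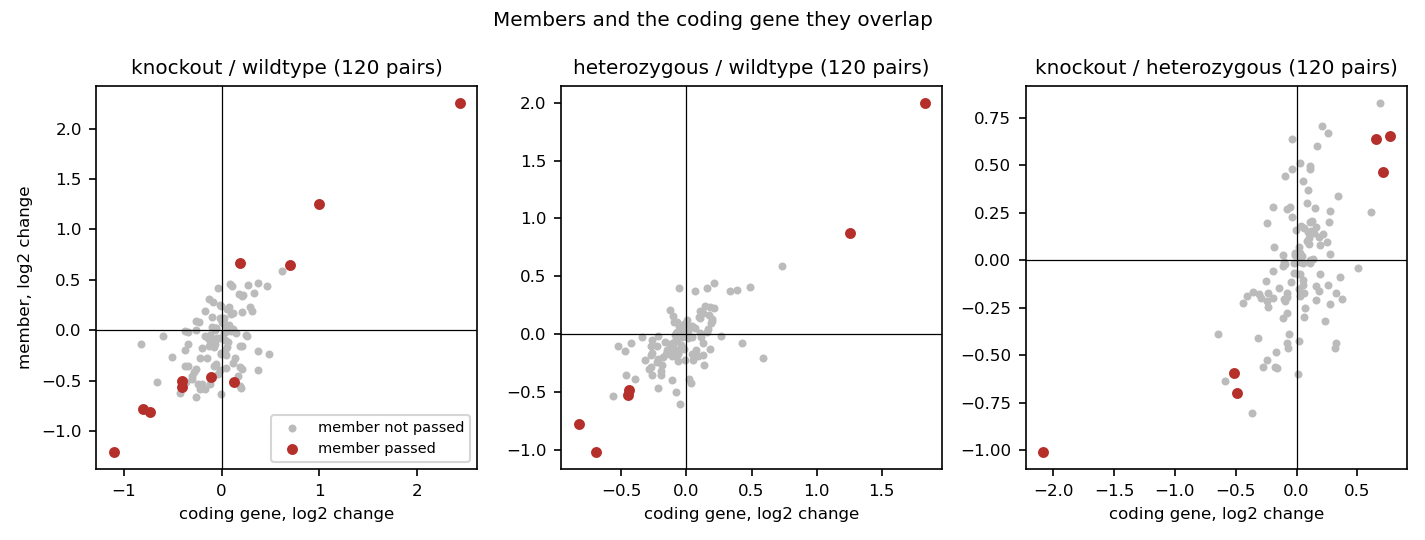
Log2 change of the member (y axis) against that of the coding gene it overlaps (x axis) for 120 pairs in each comparison, with members that passed in red. All red points except 2700086A05Rik with Hoxa3, the coding gene it overlaps over the longest stretch, in the first panel lie in the quadrants where both changed the same way, and the farthest are Gm16548 with Selp (first 2 panels) and Gm11131 with H2-Q4 (last panel).

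Other listed genes handle nuclear RNA and RNA decay. Of 17 paraspeckle proteins 1 fell in knockout against wildtype, the splicing factor Sfpq, from 3866 and 3784 to 3075 and 3012 (log2 change -0.33 ± 0.08, adjusted p = 0.0295), beside 12.5% of all genes tested that passed in that comparison. None passed in the other comparisons with limma, edgeR or DESeq2, where 3 had an unadjusted p under 0.05 in knockout against heterozygous and 0 in heterozygous against wildtype. None of 17 nuclear speckle proteins and none of 13 nonsense-mediated decay factors passed in any comparison with limma, edgeR or DESeq2, beside 12.5%, 8.07% and 12.5% of all genes tested in knockout and heterozygous against wildtype and in knockout against heterozygous. Unadjusted p-values under 0.05 numbered 4 of 17 and 1 of 13 in knockout against wildtype, and 1 or 0 in each other comparison. Over all 15781 genes tested they numbered 3930 in knockout and 2918 in heterozygous against wildtype, and 4006 in knockout against heterozygous. The medians of these lists lay between -0.09 and 0.08 on the log2 scale, against 0.00 for all genes tested.

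Other marker lists were set beside the members. Of 12 endothelial markers 7, Pecam1 among them, had a mean under 10, and of the 6 tested 1 rose and 2 fell in knockout against wildtype. Their summed value was 4000 and 3997 in wildtype, 1935 and 2215 in heterozygous and 1904 and 1678 in knockout libraries. Flt1, a receptor for vascular endothelial growth factor, made up most of that sum in wildtype, with 3412 and 3403, 1317 and 1529, and 660 and 569, whereas Kdr, another such receptor, rose by 1.57 in knockout and Emcn, an endothelial surface mucin, changed by -3.97. Of 10 neural and Schwann markers 7 had a mean under 10, and Stmn2, a neuronal microtubule protein gene, rose by 3.14 in knockout. None of 11 fibroblast and mesothelium markers was under 10, with 2 higher and 2 lower in knockout and 4 higher and 4 lower in heterozygous libraries against wildtype. In heterozygous against wildtype the matrix genes Lum and Dpt, among the 4 higher, rose by 1.99 and 1.73. Msln, among the 4 lower, changed by -1.27. The part of these markers in the members' values was not tested.

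The spread between replicates was widest in knockout. Between the libraries of a group, the members' median absolute log2 gap came to 0.16 for wildtype, 0.13 for heterozygous and 0.27 for knockout, against 0.12, 0.11 and 0.23 for all genes tested. A gap of 2-fold or more was found for 1 member in wildtype (Gm16736, 93.7 and 38.7), for none in heterozygous and for 13 in knockout. Of those 13, 8 were lower in knockout replicate 1, with Gm17284 the widest at 25.4 and 85.5, and 5 were higher there, with Gm17371 at 1717 and 805. None of the 13 passed in any comparison with limma, edgeR or DESeq2. In knockout against wildtype alone, 1 had an unadjusted p under 0.05, beside 3930 of 15781 genes tested there. The 13 were picked for that gap, which enters the spread the tests use, so the lack of calls follows largely from the choice. At the threshold of the rule, the lowest members were 2900053A13Rik, Gm17443 and A030009H04Rik with means of 50.5, 50.5 and 50.2, and the lincRNAs just under it were C030044B11Rik, Gm16793 and 1600020E01Rik with 49.9, 49.1 and 47.3. Of the 263 members, 27 had a mean under 50 in at least 1 group. Read counts per member were low at that end, down to 23 reads in heterozygous replicate 2, and the median member had 115 to 180 reads per library.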

How the data were processed

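The table held 1 row per Ensembl gene with its class, length and values for 6 libraries. The build mm9 and the tools DESeq 1.16.0, HTSeq 0.5.4p3 and TopHat2 2.0.4 are named in the submitters' processing notes, without roles, and the strand setting and annotation release are not given in the sources used here. The deposited signal values are read counts per gene that the authors divided by 1 size factor per library, since dividing by 1 step per library gave whole numbers for 100% of them, with a tolerance of 0.001 reads, and the deposited RPKM values are the authors' group means per length. The reads recovered numbered 17323962 to 28123670 per library, and counting error is only part of the spread.

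Genes with a value of 10 or more in at least 2 libraries (15781, all 263 members among them) entered limma 3.58.1 (R 4.3.3) as log2(value + 1), with a mean trend and all 3 groups in 1 fit, with 3 residual and 6.17 prior degrees of freedom. Fold changes on this scale understate those of low genes. P-values were adjusted over all genes tested by the Benjamini-Hochberg method. With 2 libraries against 2, an exact permutation test of 1 gene cannot give a two-sided p under 0.333. The alternatives were a pseudocount of 5, no low-value filter, quantile normalization, edgeR 4.0.16 and DESeq2 1.42.0 on the recovered reads, no mean trend, only the groups compared, the replicate number as a block, and leaving out each library.

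Members were matched to GENCODE M21 and RefSeq (GRCm38.p6) by ID or name only, since the files are of another build, and printed coordinates and sequences are RefSeq's. Named members are those on the role lists, the 10 with the highest RPKM, those that passed, those next to the threshold and those with the widest replicate gap. A further 4 (0610009E02Rik, 1700016P03Rik, 2700038G22Rik and 9430037G07Rik) were named after their values were seen, as were the microRNA and snoRNA groups taken from the annotation. The members, lists and rule were chosen with earlier results of these data known, so no list is independent support.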

Additional observations from a re-analysis of the deposited data

How the results depend on the processing

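No value of the 64 calls changed sign under any alternative. Of 896 recomputed values of called members, 655 stayed under the threshold and 241 did not. Pseudocount 5, edgeR and the replicate block ended no call, the missing filter ended 10, quantile normalization 6, DESeq2 12, the missing mean trend 28 and the fit of only the groups compared 25. For 12 of the members printed without a call in knockout against wildtype, the log2 changes kept their sign in all alternatives, and 16 of 168 recomputed values passed. That set does not hold every change printed without a call. It leaves out those of 1700016P03Rik, 2010300F17Rik and Gm11613 in knockout and of Gm2115 and Gm16908 in heterozygous against wildtype. With only the groups compared, which leaves fewer libraries, the counts were 4 higher and 9 lower in knockout against wildtype, 16 and 25 in heterozygous against wildtype, and 5 and 6 in knockout against heterozygous. Without the mean trend, 4 members rose in knockout against wildtype, 5 fell in heterozygous against wildtype and 7 fell in knockout against heterozygous, and with quantile normalization 17 rose in the last. The cause was not tested.

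Leaving out 1 library gave 3 to 44 members higher and 5 to 57 lower in knockout against wildtype, 3 to 16 and 3 to 24 in heterozygous against wildtype, and 2 to 45 and 2 to 49 in knockout against heterozygous. The lone library left in a group is then assumed to vary like the others. The labels do not say that equal replicate numbers share an animal or batch, and only 2 pairs exist per comparison. Deviations of same-numbered libraries from their group means correlated at 0.17, 0.20 and 0.14 (wildtype with heterozygous, wildtype with knockout, heterozygous with knockout), across genes. With the replicate block, 13 members rose and 22 fell in knockout against wildtype, 7 and 9 in heterozygous against wildtype, and 16 and 13 in knockout against heterozygous. For the members with the fewest reads, down to 23 in 1 library, counting error limits what can be called.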
